A study of Mus musculus with 12 samples.

Results

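The genes described here are 10 reported targets of the miR-15 microRNA family, listed together under the control of cell-cycle entry. They are the D-type cyclin genes Ccnd1, Ccnd2 and Ccnd3, the kinase gene Cdk6, the cyclin E gene Ccne1 and the transcription factor gene E2f3. The others are the phosphatase gene Cdc25a, the kinase gene Wee1, the survival gene Bcl2 and the small GTPase gene Cdc42. The 10 genes were taken by name from the 38293 genes of the deposited tables. All 10 were among the 14770 genes with enough counts to be tested. The RNA, selected for poly(A) tails, came from left ventricles of C57BL/6J mice with healthy hearts. Each heart had received 2 intramyocardial injections, with 10 µl at each, and was taken 3 days later. The 12 libraries form 3 groups of 4, from hearts injected with the hydrogel Upy-PEG carrying antimiR-195, with Upy-PEG alone, and with phosphate-buffered saline (PBS). Upy-PEG is a gel that holds water in a network of poly(ethylene glycol) held together by ureidopyrimidinone units. The oligonucleotide antimiR-195 is made to block miR-195. The labels give the age and sex of the mice for no library. Nor do they state whether every library is from its own animal, and a p-value here measures the spread between these samples only.

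A microRNA guides Argonaute proteins to messenger RNAs that pair with its seed, which lowers translation and, for many targets, the amount of the messenger RNA. Members of the miR-15 family share their seed, and in the mouse heart miR-195 is known to increase around birth, when heart muscle cells leave the cell cycle. Cyclin D bound to Cdk4 or Cdk6, and then cyclin E bound to Cdk2, phosphorylate the retinoblastoma protein, which releases E2F factors to switch on the genes of DNA replication.

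The mature microRNAs are shown first because the shared seed (bases 2 to 8, in capitals) defines the family and the sites searched. The sequences are those of RefSeq on GRCm38.p6, 5′ to 3′.
miR-195a-5p: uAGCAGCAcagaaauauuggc
miR-195b: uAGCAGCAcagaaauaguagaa
miR-16-5p: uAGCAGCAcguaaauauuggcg
miR-15a-5p: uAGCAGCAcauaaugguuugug
miR-15b-5p: uAGCAGCAcaucaugguuuaca
miR-322-5p: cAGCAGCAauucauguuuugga
Outside the seed they diverged. Of the 21 positions of miR-195a-5p, miR-16-5p had the same base at 19 and miR-195b at 18. The count was 15 for miR-15a-5p, 14 for miR-15b-5p and 11 for miR-322-5p.

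Matches to the seed were searched on the sense strand of the longest annotated 3′ untranslated region (3′ UTR) of each gene, in GENCODE release M21 on GRCm38, the build named in the submitters' processing notes. The 8mer is TGCTGCTA. The 7mer-m8 is TGCTGCT and the 7mer-A1 is GCTGCTA, and both lie within the 8mer, so each site was counted once under its longest form. Of the 10 targets, 9 held an 8mer or 7mer match in that UTR, each with 2 or 3 of them, and 7 held an 8mer. Among the 13317 tested genes that could be searched, 28.2% held an 8mer or 7mer and 4.54% an 8mer. Since the genes were listed as reported targets, these shares describe them and are not evidence of binding here. Long UTRs also hold more matches by length alone. Among genes with a UTR within 20% of the same length, 12.7% held an 8mer or 7mer at the 531 bases of Ccne1 and 85.4% did at the 10217 bases of Cdk6.

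One site of each gene is printed, the 8mer where there is one and otherwise a 7mer-m8, because these are the places where miR-195 could pair with the genes measured. Each is the 30 bases that end with the site, 5′ to 3′ on the strand of the messenger RNA, with the match in capitals.
Ccnd1 (7mer-m8, chr7:144930395-144930424, minus strand): gcggcctgttgtgcatgccaccaTGCTGCT
Ccnd2 (8mer, chr6:127128541-127128570, minus strand): ctagctgtaatgtttcacggtgTGCTGCTA
Ccnd3 (7mer-m8, chr17:47599271-47599300, plus strand): aacccatacactgttgctttgctTGCTGCT
Cdk6 (8mer, chr5:3524523-3524552, plus strand): gaagaccccaagttgcacagggTGCTGCTA
Ccne1 (8mer, chr7:38098023-38098052, minus strand): tcatgaactcttattttgtaagTGCTGCTA
E2f3 (8mer, chr13:29907387-29907416, minus strand): aggttccctggtaccattgagtTGCTGCTA
Cdc25a (8mer, chr9:109892848-109892877, plus strand): aggaggcgctgcagaccagtatTGCTGCTA
Wee1 (8mer, chr7:110142646-110142675, plus strand): tggaggccttgccttgtgaattTGCTGCTA
Bcl2 (8mer, chr1:106540798-106540827, minus strand): gaatatggaataagaaaccctgTGCTGCTA
Cdc42 (7mer-m8 in Cdc42-201, chr4:137322314-137322343, minus strand): cacgttagacttgtttaactttcTGCTGCT

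Cdc42 was the exception to the longest UTR. The 1407 bases of Cdc42-202 held no 8mer or 7mer, whereas the 768 bases of Cdc42-201 held 3 matches of the 7mer-m8 kind, at bases 23, 26 and 210, the first pair overlapping. The reverse held for Bcl2 and Cdk6, whose shorter transcripts Bcl2-202 and Cdk6-201 held none. Nor did transcripts of Ccnd2 with UTRs of 318 and 301 bases, of Ccnd3 with 318 and 87 bases, and of Cdc25a with 2 bases. Reads were counted per gene, so transcripts with and without sites could not be told apart in the values below.

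**Figure D1:**
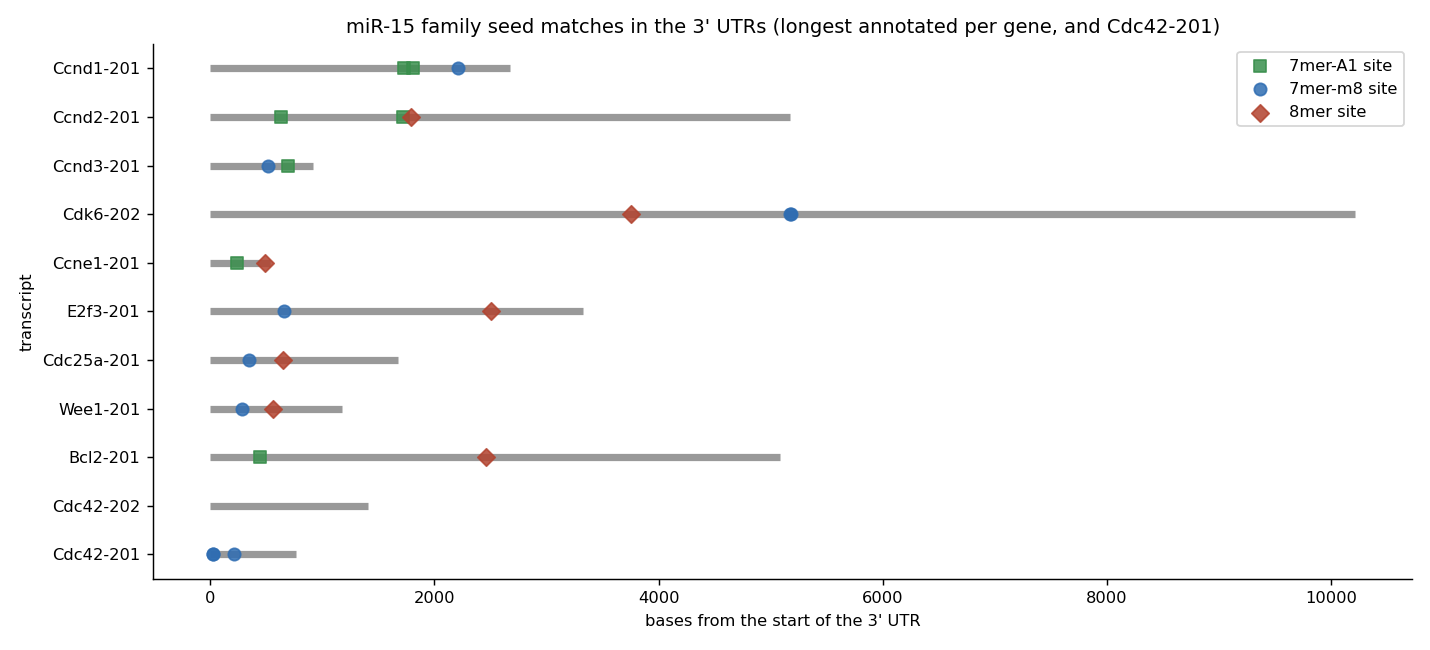
Positions of 8mer, 7mer-m8 and 7mer-A1 matches to the miR-15 family seed along the 3′ UTR of each transcript, in bases from the start of the UTR (grey bars). The longest UTR of Cdc42 carries no symbol, while Cdc42-201, in the lowest line, carries 3.

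Libraries held 22353241 to 30278621 counts on genes. Among the antimiR-195 libraries, replicates 2 and 3 stood apart, at 60.2 and 40.7 on the first principal component, against −33.4 to 8.5 for the other libraries. The same libraries had lower values for long genes, with slopes of log2 CPM (counts scaled to library size with TMM factors) on log2 gene length of −0.229 and −0.135 per doubling of length, against −0.0415 to 0.122 elsewhere. Upy-PEG replicate 1 was highest on the second component, at 47.5. Results that rest on these libraries are given below with and without antimiR-195 replicates 2 and 3. Markers of heart muscle, 10 genes, summed to between 60275 and 93118 CPM in every library, and none was at 0. The sums were 80791 to 88616 CPM in antimiR-195 hearts, 60275 to 80158 CPM in Upy-PEG hearts and 83712 to 93118 CPM in PBS hearts. Every Upy-PEG library thus lay below every library of the other groups.

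The microRNAs themselves could not be followed in these libraries of polyadenylated RNA. The precursor genes Mir15a, Mir15b, Mir16-1 and Mir16-2 had 0 counts in every library, and Mir195a had 6 counts, all of them in antimiR-195 replicate 3. Host transcripts were examined for the cluster of miR-15a and miR-16-1 and for that of miR-15b and miR-16-2. No host transcript of miR-195 was among the genes listed. Dleu2, which carries miR-15a and miR-16-1, averaged 3.65 ± 0.25 CPM in antimiR-195 hearts, 3.43 ± 0.22 CPM in Upy-PEG hearts and 2.90 ± 0.51 CPM in PBS hearts (SD, n = 4). Smc4, the host of miR-15b and miR-16-2 and a condensin subunit, averaged 19.1 ± 2.84, 25.7 ± 3.87 and 20.7 ± 3.39 CPM in the antimiR-195, Upy-PEG and PBS hearts. Neither passed the test in any comparison (edgeR quasi-likelihood test with Benjamini-Hochberg adjustment, adjusted p between 0.307 and 0.790). Smc4 was lower at an unadjusted p under 0.05 for antimiR-195 over Upy-PEG, at a log2 fold change of −0.43, where 6.4% of all genes were lower.

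Per length, as RPKM (reads scaled to gene length and library size), the 10 targets spanned a wide range of levels. Cdc42 was highest, at 75.8 RPKM on average over the 12 libraries, above 95.9% of tested genes. The D-type cyclins followed with 27.6 RPKM for Ccnd3, 18.4 RPKM for Ccnd1 and 15.8 RPKM for Ccnd2, then Wee1 with 4.39 RPKM and E2f3 with 2.69 RPKM. Lowest were Cdc25a at 1.86, Bcl2 at 1.24, Ccne1 at 0.924 and Cdk6 at 0.785 RPKM. The ranges over the 12 libraries overlapped between Ccnd1 and Ccnd2 and between all neighbours from Wee1 downwards, but not between Cdc42 and Ccnd3, Ccnd3 and Ccnd1, or Ccnd2 and Wee1. The highest Ccnd2 value, in Upy-PEG replicate 1, lay above the lowest Ccnd3 value. Within a library the order held in all 12 but for Ccnd1 over Ccnd2 and Bcl2 over Ccne1, each in 9 of 12, and Ccne1 over Cdk6, in 7 of 12. The rarest targets rest on few reads, with 32 to 162 counts a library for Cdk6 and 32 to 108 for Ccne1.

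Setting antimiR-195 in Upy-PEG against Upy-PEG alone addresses the effect of the oligonucleotide in the gel. No group received a control oligonucleotide, so blocking of miR-195 and other effects of an oligonucleotide cannot be told apart. In edgeR's quasi-likelihood test 0 of the 10 targets passed an adjusted p of 0.05, and 0 had an unadjusted p under 0.05, where 0% and 13.1% of all 14770 genes did (6.67% higher, 6.4% lower). DESeq2 and limma voom called 0 of the 10 as well, where they called 0.108% and 0% of genes. The ranges of the groups overlapped for all 10, where 4.4% of genes had ranges that did not (1.94% higher, 2.46% lower). The fitted log2 fold changes lay between −0.29 and 0.08, with 3 targets higher and 7 lower and a median of −0.07, against −0.01 over all genes tested. The upper ends of the 95% intervals ran from 1.14-fold for Bcl2 to 1.46-fold for Ccne1, and the lower ends from 0.515-fold for Cdk6. Without antimiR-195 replicates 2 and 3, 6 targets were higher and 4 lower with a median of 0.03. The upper ends then ran from 1.09-fold for Cdc42 to 1.68-fold for Cdk6, and the lower ends from 0.441-fold for Ccne1. None had an unadjusted p under 0.05.

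Among the D-type cyclins, which bind and activate Cdk4 and Cdk6, Ccnd1 (chr7:144929931-144939925) had 74.7, 73.9, 60.8 and 77.0 CPM in antimiR-195 hearts, 73.4, 65.5, 60.5 and 70.7 CPM in Upy-PEG hearts, and 80.2, 66.3, 77.5 and 66.7 CPM in PBS hearts. All 3 groups overlapped. Its log2 fold change for antimiR-195 over Upy-PEG was 0.08 ± 0.11 (SE; edgeR adjusted p = 0.707).

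Ccnd3 (chr17:47505051-47599691) was the steadiest of the 10, with 55.1, 59.4, 61.7 and 61.2 CPM in antimiR-195 hearts, 58.0, 55.2, 61.0 and 56.3 CPM in Upy-PEG hearts, and 53.1, 59.1, 57.4 and 62.0 CPM in PBS hearts. The groups overlapped throughout. For antimiR-195 over Upy-PEG the 95% interval of its fold ran from 0.909 to 1.17. Ccnd1 and Ccnd3 each overlap a gene on the opposite strand, LTO1 with 5637 counts in all and Bysl with 8597. The strand setting of the authors' counting is not given in the sources used here, so the Ccnd1 and Ccnd3 values are uncertain by reads of these neighbours.

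Ccnd2 (chr6:127125162-127152193) varied more, with 87.2, 49.4, 55.2 and 96.5 CPM in antimiR-195 hearts, 122.7, 81.7, 71.7 and 77.2 CPM in Upy-PEG hearts, and 82.5, 133.6, 120.3 and 96.9 CPM in PBS hearts. The lowest values were those of antimiR-195 replicates 2 and 3, the libraries with low values for long genes, and the other antimiR-195 libraries lay among those of both other groups. Its log2 fold change was −0.29 ± 0.23 for antimiR-195 over Upy-PEG and −0.59 ± 0.23 for antimiR-195 over PBS (SE; edgeR adjusted p = 0.546 and 0.273). Leaving out replicates 2 and 3 gave 0.06 and −0.23. With the gene length slope as a covariate they were 0.06 and −0.15. For Upy-PEG over PBS the log2 fold change of Ccnd2 was −0.29 ± 0.23 (SE; edgeR adjusted p = 0.668), and −0.29 without those replicates. The covariate gave −0.21, with a 95% interval of the fold from 0.782 to 0.957 (edgeR unadjusted p = 0.0084, adjusted p = 0.0926), and limma voom with sample weights −0.45 (unadjusted p = 0.0106, adjusted p = 0.0913).

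Over the 12 libraries, which share their depth and length slope across all genes, Ccnd2 followed the slope with a Pearson r of 0.96 and a Spearman rho of 0.94. Each had a permutation p of 1e-05, the smallest that 100000 permutations can give, and 0.0005 after adjustment over the 50 relations computed between targets and library measures. Without antimiR-195 replicates 2 and 3 r was 0.94. Bcl2 also followed the slope, with r = 0.78 and rho = 0.78 (permutation test, n = 12, adjusted p = 0.0395 and 0.0479), and r was 0.55 without those libraries. Bcl2 and Ccnd2 are the longest of the targets, at 7191 and 5701 bases. The slope is itself taken over all genes by length, so long genes tend to follow it. How many other genes have such an r was not examined. With the mean of each group removed, r was 0.98 for Ccnd2 and 0.79 for Bcl2 (exact permutation within groups, p = 0.000145 and 0.0152, adjusted p = 0.00723 and 0.0949). Cdk6 and Cdc25a had r = 0.64 and 0.63 with the slope, and their adjusted p-values in the same permutation test, n = 12, were 0.125 and 0.153. With the slope as a covariate the log2 fold change for antimiR-195 over Upy-PEG was 0.02 for Cdk6, against −0.29 without it, and 0.13 for Cdc25a, against −0.07.

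**Figure D2:**
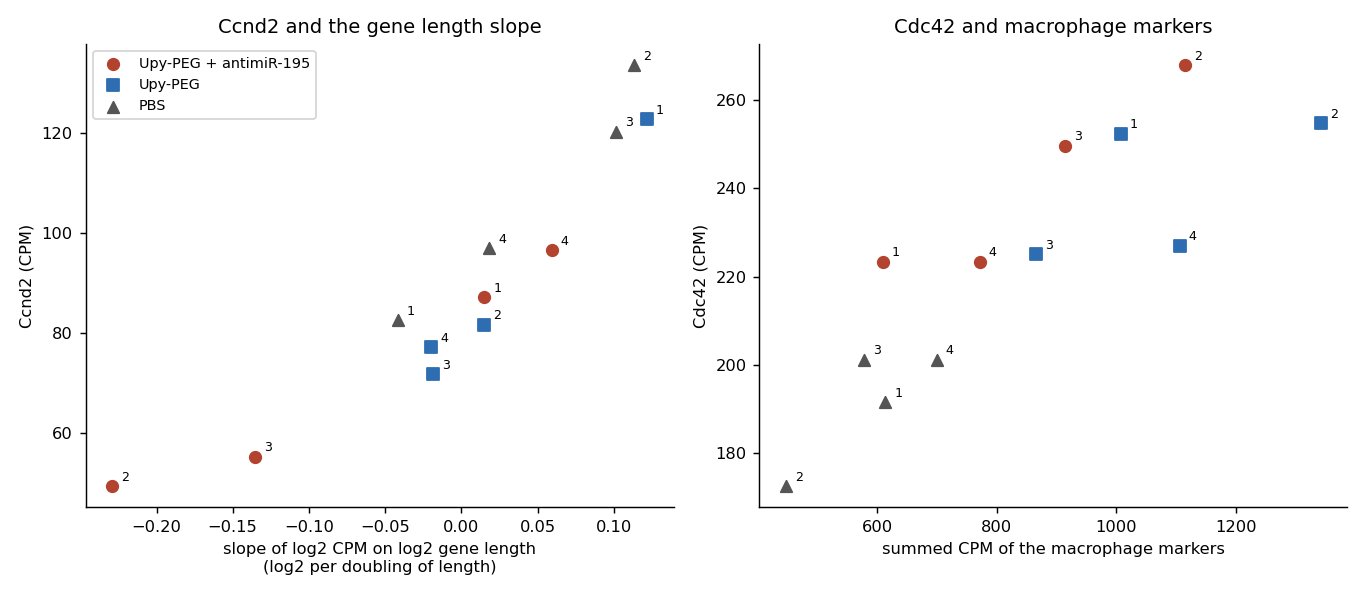
Left, Ccnd2 in CPM against the slope of log2 CPM on log2 gene length of each library; right, Cdc42 in CPM against the summed CPM of 8 macrophage markers; points are libraries and digits are replicates. Ccnd2 is lowest in antimiR-195 replicates 2 and 3, whose slopes are the lowest, and the 4 PBS libraries have the lowest Cdc42.

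The make-up of the D-type cyclins was compared as shares of their summed RPKM. Ccnd2 was 20.99% ± 5.18 of the sum in antimiR-195 hearts, 25.4% ± 4.31 in Upy-PEG hearts and 28.9% ± 4.50 in PBS hearts (SD, n = 4). Ccnd3 held 47.6% ± 5.02, 45.4% ± 4.14 and 42.0% ± 2.79 in the same groups, and Ccnd1 31.5% ± 2.33, 29.2% ± 1.75 and 29.1% ± 4.02. No share passed the test between any pair of groups. The lowest 2-sided exact permutation p was 0.114, where 70 assignments of 4 against 4 allow 0.0286, and 0.536 after adjustment over the 15 tests made.

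Cdk6 (chr5:3341485-3531008), the kinase partner of the D-type cyclins, had 2.09, 2.41, 1.56 and 3.60 CPM in antimiR-195 hearts, 5.03, 2.38, 2.46 and 1.92 CPM in Upy-PEG hearts, and 3.45, 4.16, 2.96 and 2.75 CPM in PBS hearts. The groups overlapped, and the highest value was that of Upy-PEG replicate 1. Cdk6 was the minor kinase of the pair, at 3.23% ± 1.45 of the summed RPKM of Cdk4 and Cdk6 in antimiR-195 hearts, 3.87% ± 1.72 in Upy-PEG hearts and 5.34% ± 1.51 in PBS hearts. No difference between groups passed (exact permutation test, unadjusted p between 0.114 and 0.6, adjusted p between 0.536 and 0.818), under the limit given above for shares.

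Ccne1 (chr7:38097984-38107534), whose product activates Cdk2, had 2.09, 3.87, 2.79 and 1.74 CPM in antimiR-195 hearts, 3.36, 2.78, 1.75 and 3.03 CPM in Upy-PEG hearts, and 1.76, 1.36, 2.42 and 2.43 CPM in PBS hearts. The gel groups reached higher values than PBS but overlapped it. Its log2 fold change was −0.06 ± 0.28 for antimiR-195 over Upy-PEG, 0.46 ± 0.28 for Upy-PEG over PBS and 0.40 ± 0.29 for antimiR-195 over PBS (SE; edgeR adjusted p = 0.924, 0.553 and 0.452). The last of these was −0.05 without antimiR-195 replicates 2 and 3. Ccne1 made up 48.3% ± 10.4, 47.5% ± 5.08 and 46.9% ± 5.04 of the summed RPKM of Ccne1 and Ccne2 in the antimiR-195, Upy-PEG and PBS groups, differences within the spread (exact permutation test, adjusted p = 0.971 in each comparison).

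E2f3 (chr13:29906575-29986063), which encodes an E2F factor released by the retinoblastoma protein, ranged from 10.02 to 14.2 CPM in antimiR-195 hearts, 11.7 to 14.4 CPM in Upy-PEG hearts and 12.3 to 13.4 CPM in PBS hearts. Its log2 fold changes were −0.02 for antimiR-195 over Upy-PEG, −0.02 for Upy-PEG over PBS and −0.04 for antimiR-195 over PBS, with an SE of 0.12 for each.

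Cdc25a (chr9:109875579-109893895), the phosphatase that removes inhibitory phosphates from Cdk2 and Cdk1, had 8.68, 4.69, 6.55 and 6.23 CPM in antimiR-195 hearts, 9.42, 5.72, 6.15 and 6.13 CPM in Upy-PEG hearts, and 6.52, 6.74, 6.58 and 7.17 CPM in PBS hearts. Replicate 1 of each gel group stood above the rest, and PBS values were close together. The log2 fold change was −0.07 ± 0.20 for antimiR-195 over Upy-PEG (SE; edgeR adjusted p = 0.872), and 0.12 without Upy-PEG replicate 1.

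Wee1 (chr7:110122046-110143286), the kinase that adds those inhibitory phosphates, had 9.19, 5.51, 8.21 and 5.26 CPM in antimiR-195 hearts, 6.68, 8.06, 8.09 and 9.53 CPM in Upy-PEG hearts, and 8.34, 10.1, 12.2 and 11.2 CPM in PBS hearts. PBS values were the highest on the whole, but PBS replicate 1 lay within both gel groups. The log2 fold change was −0.57 ± 0.19 for antimiR-195 over PBS, −0.37 ± 0.19 for Upy-PEG over PBS and −0.20 ± 0.19 for antimiR-195 over Upy-PEG (SE; edgeR adjusted p = 0.253, 0.447 and 0.617). The first was −0.53 when antimiR-195 replicates 2 and 3 were left out.

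Bcl2 (chr1:106538178-106714274), which keeps cells from apoptosis at the mitochondrial membrane, had 9.23, 6.54, 7.14 and 10.1 CPM in antimiR-195 hearts, 11.8, 8.66, 9.29 and 7.90 CPM in Upy-PEG hearts, and 7.56, 7.68, 10.7 and 9.64 CPM in PBS hearts. The groups overlapped throughout. The log2 fold change for antimiR-195 over Upy-PEG was −0.19 ± 0.18 (SE; edgeR adjusted p = 0.610). It was 0.04 once antimiR-195 replicates 2 and 3 were left out.

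**Figure D3:**
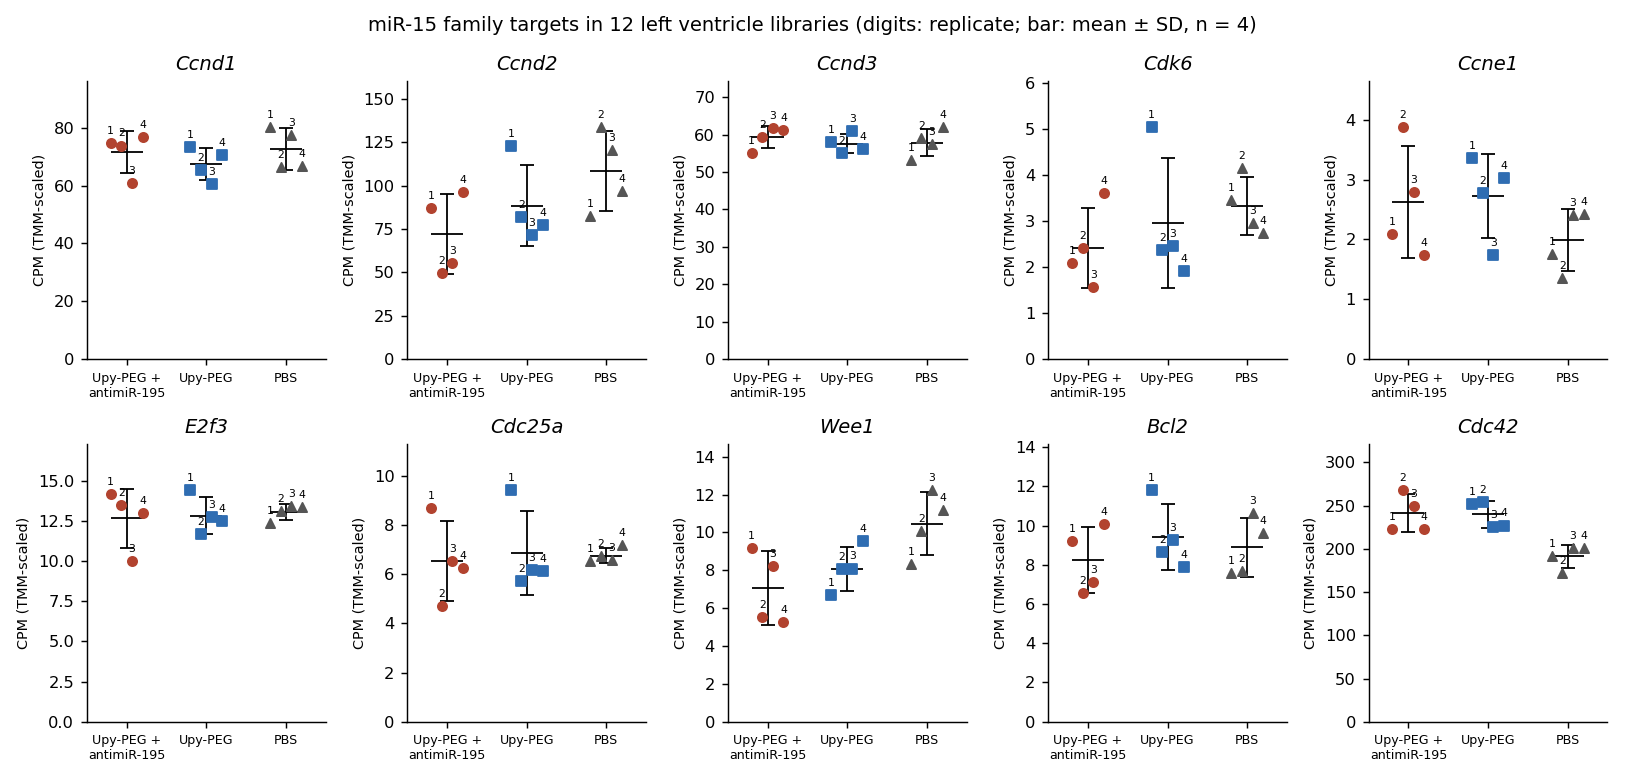
CPM of each of the 10 targets in every library, by group, with replicate numbers above the points and the mean ± SD of 4 libraries as bars; each axis starts at 0. The groups overlap in every panel but that of Cdc42, where the 8 gel libraries lie above the 4 PBS libraries.

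Setting Upy-PEG against PBS addresses the effect of the gel. In edgeR 0 of the 10 targets passed the adjusted threshold, as for 0% of genes, and DESeq2 and limma voom called 1 each, where they called 3.46% and 6.22% of genes. In edgeR 1 of 10 had an unadjusted p under 0.05, against 13.2% of genes (9.33% higher, 3.83% lower). That gene, Cdc42, was also the 1 target whose ranges did not overlap, against 9.68% of genes (5.91% higher, 3.77% lower). The 10 targets had a median log2 fold change of −0.02, with 4 higher and 6 lower, beside −0.03 over all genes.

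Cdc42 (chr4:137319696-137357720) encodes a small GTPase that organises actin and cell polarity. It had 223.4, 268.0, 249.8 and 223.4 CPM in antimiR-195 hearts and 252.4, 254.8, 225.0 and 227.0 CPM in Upy-PEG hearts, against 191.5, 172.4, 201.1 and 201.1 CPM in PBS hearts. Every gel library exceeded every PBS library, and the gel groups overlapped each other. The fold was 1.25 for Upy-PEG over PBS (95% interval 1.08 to 1.45, unadjusted p = 0.00607, adjusted p = 0.159 in edgeR) and 1.26 for antimiR-195 over PBS (95% interval 1.08 to 1.46, unadjusted p = 0.0052, adjusted p = 0.253). DESeq2 on the same counts gave adjusted p-values of 0.0226 for Upy-PEG and 0.0499 for antimiR-195 over PBS, and limma voom with sample weights 0.0304 and 0.345, so the call turned on the test. Over the other settings the adjusted p ran from 0.0226 to 0.246 and from 0.0499 to 0.999. With antimiR-195 replicates 2 and 3 left out, the log2 fold change for antimiR-195 over PBS was 0.23, against 0.33 with them.

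Markers of other cells were set beside Cdc42. All 8 macrophage markers were detected and summed to 609 to 1116 CPM in antimiR-195 hearts, 865 to 1342 CPM in Upy-PEG hearts and 447 to 699 CPM in PBS hearts. All 8 fibroblast markers were detected too, at 2690.4 to 4510.2, 3896 to 8302 and 2875 to 4748 CPM in these groups. For Upy-PEG over PBS all 8 of each set were higher, at median log2 fold changes of 0.75 and 0.58, where Cdc42 had 0.32. For antimiR-195 over Upy-PEG, 8 and 6 were lower, at medians of −0.34 and −0.51, where Cdc42 had 0.01. For antimiR-195 over PBS, 6 and 4 were higher, at medians of 0.27 and 0.03, where Cdc42 had 0.33. Over the 12 libraries Cdc42 followed the mean log2 CPM of the macrophage markers, with r = 0.81 and rho = 0.90 (permutation test, n = 12, p = 0.00185 and 0.00013, adjusted p = 0.0395 and 0.00325), and r was 0.68 without the 2 libraries farthest from the median. The fibroblast markers gave r = 0.67 and rho = 0.76 (permutation test, adjusted p = 0.104 and 0.0584). The mitosis genes described below gave r = 0.71 and rho = 0.78 (same test, adjusted p = 0.0699 and 0.0479). The heart muscle markers gave r = −0.55 and rho = −0.64 (same test, adjusted p = 0.281 and 0.123). With the mean of each group removed from both measures, a fit added after the data were seen, r was 0.83 with the macrophage markers and 0.85 with the fibroblast markers (exact permutation within groups over 13824 arrangements, p = 0.00239 and 0.00152, adjusted p = 0.0398 and 0.0380). It was 0.75 with the mitosis genes (same test, adjusted p = 0.088). The part of macrophages and fibroblasts in the Cdc42 result was not tested, and in bulk tissue more cells of a type and more RNA per cell cannot be told apart. Ccne1 had r = 0.76 with the macrophage markers and r = 0.75 with the fibroblast markers, with an adjusted p of 0.054 for each (permutation test, n = 12). With group means removed these were 0.82 for both sets of markers (exact permutation within groups, adjusted p = 0.0600 and 0.0533).

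Between antimiR-195 in Upy-PEG and PBS, both the oligonucleotide and the gel differ. Of the 10 targets, 0 passed the adjusted threshold in edgeR, as for 0% of genes, while DESeq2 called 1 and limma voom 0, beside 0.657% and 0.00677% of genes. An unadjusted p under 0.05 was reached by 3, Cdc42 higher and Wee1 and Ccnd2 lower, against 16.5% of genes (8.65% higher, 7.89% lower), and ranges did not overlap for 1, Cdc42, against 6.06% of genes (2.74% higher, 3.32% lower). The median was −0.05, beside 0.01 over all genes. Without antimiR-195 replicates 2 and 3, Cdc42 and Wee1 still had unadjusted p-values under 0.05, at 0.0458 and 0.0392, and Ccnd2 had 0.322. Both comparisons with PBS share the PBS libraries and are not independent of each other.

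**Figure D4:**
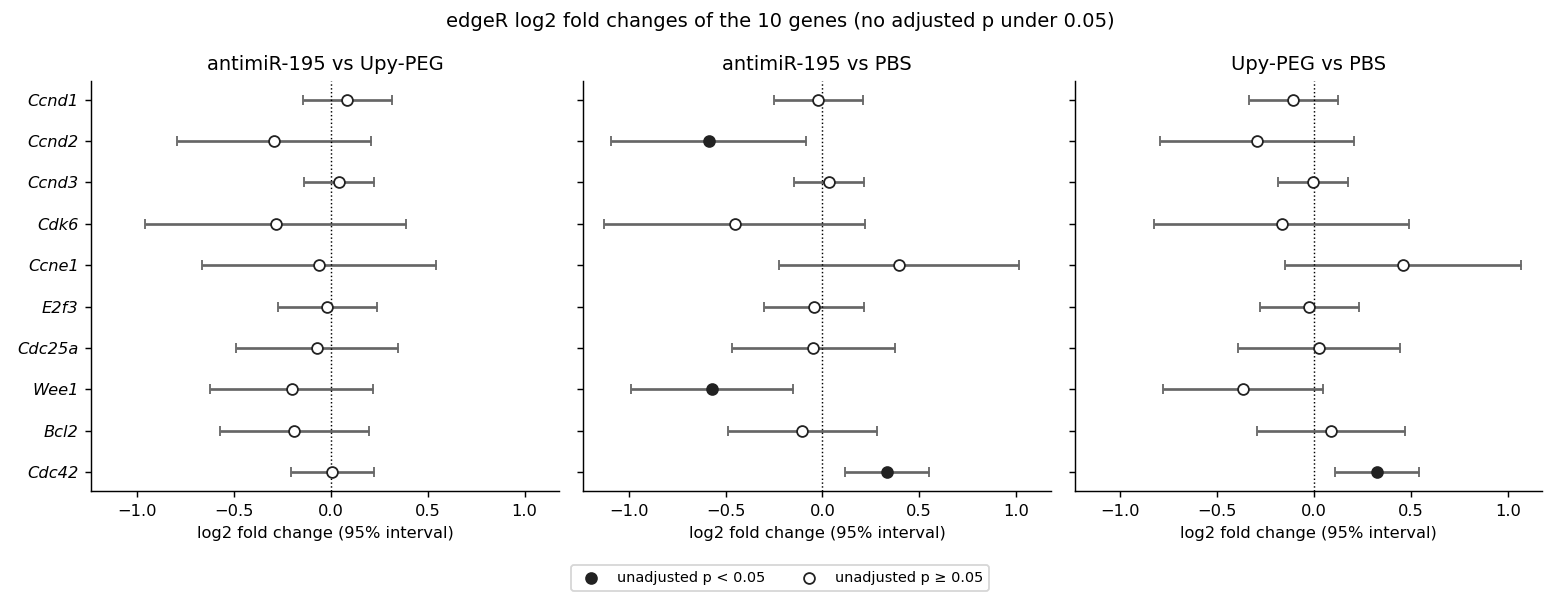
Log2 fold changes of the 10 targets in 3 comparisons with 95% intervals from edgeR; filled points have an unadjusted p under 0.05. All intervals span 0 for antimiR-195 over Upy-PEG, while the filled points are Cdc42 in both comparisons with PBS and Ccnd2 and Wee1 for antimiR-195 over PBS.

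The genes around the targets were described from lists of the same pathway. In edgeR 0 genes of these lists passed the adjusted threshold in any comparison, and the values that follow are descriptions. DESeq2 called 2 mitosis genes for antimiR-195 over Upy-PEG, where it called 16 of 14770 genes. For Upy-PEG over PBS it called 16 of 20 mitosis genes, 4 of 19 replication genes, 1 of 30 genes of the G1 to S switch and 2 of 16 Cdc42 partners, and limma voom called 16, 3, 2 and 2 with 1 of 14 Bcl2 family genes, beside 511 genes in all for DESeq2 and 918 for limma voom. For antimiR-195 over PBS both called 0. Of 30 other genes listed for the switch from G1 to S phase, 3 were higher and 7 lower for antimiR-195 over Upy-PEG. The threshold was an unadjusted p under 0.05, which 6.67% of all genes reached higher and 6.4% lower. The median log2 fold change of the 30 was −0.13. Those with the lowest p were Cdc25b, a phosphatase that activates Cdk1, at 6.69 ± 0.51 CPM in antimiR-195 hearts and 9.66 ± 1.80 CPM in Upy-PEG hearts, and E2f8, a repressor of the E2F family, at 1.78 ± 0.32 CPM and 3.64 ± 0.89 CPM. Fbxw7, part of a ubiquitin ligase that marks cyclin E for destruction, had 73.5 ± 2.16 CPM in antimiR-195 hearts and 61.3 ± 4.91 CPM in Upy-PEG hearts. Their log2 fold changes were −0.53, −1.03 and 0.26, each with an edgeR adjusted p of 0.364. For Upy-PEG over PBS, 8 were higher and 2 lower with a median of 0.23, where 9.33% and 3.83% of all genes were. The list was led by Cdc25c, E2f2 and the Cdk inhibitor gene Cdkn1a at 1.26, 0.96 and 0.89. Cdc25c, like Cdc25b, acts on Cdk1, which is counted among the mitosis genes. For antimiR-195 over PBS, 3 of the 30 were higher and 2 lower with a median of 0.08, where 8.65% and 7.89% of all genes were. Rbl2, a relative of the retinoblastoma protein, had −0.31, Cdk4 0.33 and Cdkn1a 0.72.

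Genes that act after cell-cycle entry were set beside the targets. Of 19 tested DNA replication genes, 4 were lower and 0 higher at an unadjusted p under 0.05 for antimiR-195 over Upy-PEG, and 14 were higher and 0 lower for Upy-PEG over PBS, with median log2 fold changes of −0.40 and 0.47. Of 20 mitosis genes, 15 were lower and 0 higher in the first comparison and 19 higher and 0 lower in the second, with medians of −0.80 and 1.10. Of all genes tested, 6.67% were higher and 6.4% lower at that p in the first, and 9.33% and 3.83% in the second. Both comparisons share the Upy-PEG libraries. Mki67, the proliferation marker, averaged 11.5 ± 2.23 CPM in antimiR-195 hearts, 28.4 ± 10.99 CPM in Upy-PEG hearts and 12.1 ± 3.80 CPM in PBS hearts. The replication helicase gene Mcm3 averaged 9.51 ± 1.68, 14.1 ± 2.15 and 8.81 ± 1.19 CPM in these groups. Other genes with the lowest p were Bub1b, Kif20a, Mcm2 and Mcm5, at −1.07, −0.94, −0.55 and −0.60 for antimiR-195 over Upy-PEG. For Upy-PEG over PBS they were Bub1, Kif20a, Ccna2 and Tk1, at 1.51, 1.04, 1.23 and 1.14.

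Some markers of other cells moved with these genes. At an unadjusted p under 0.05, 6.4% of all genes were lower for antimiR-195 over Upy-PEG and 9.33% higher for Upy-PEG over PBS. Of the 8 macrophage markers, 5 were lower and 7 higher in these comparisons, and of the 8 fibroblast markers 3 were lower and 5 higher. All 4 neutrophil markers were lower in the first and higher in the second, at medians of −0.59 and 0.75, with 1 at that p in each. Heart muscle markers went the other way, at medians of 0.26 and −0.29. At that p 4 of these 10 were higher in the first, against 6.67% of genes, and 1 lower in the second, against 3.83%. Of 6 endothelial markers, 0 and 1 passed, the 1 being lower. The part of these cells in the values of the replication and mitosis genes was not tested. In a fit without antimiR-195 replicates 2 and 3, chosen after the data were seen, 18 of 20 mitosis genes and 11 of 20 replication genes were lower at an unadjusted p under 0.05 for antimiR-195 over Upy-PEG, against 6.61% of all genes. For Upy-PEG over PBS, 9 and 3 of 20 then passed the adjusted threshold, as did 349 of 15135 genes. For antimiR-195 over PBS in all 12 libraries, 8.65% of genes were higher at an unadjusted p under 0.05. They included 1 mitosis gene of 20 (Birc5, 0.75) and 1 replication gene of 19 (Pcna, 0.29), with list medians of 0.27 and 0.19. Next in rank were Ccnb2, Cenpa, Tk1 and Gins1, at 0.68, 0.38, 0.61 and 0.50. Without antimiR-195 replicates 2 and 3, 0 of 20 mitosis genes and 0 of 20 replication genes had an unadjusted p under 0.05 in that comparison, with medians of 0.098 and 0.0066, where 4.48% of genes did. With all libraries, the medians of the 10 targets were −0.07 for antimiR-195 over Upy-PEG, −0.02 for Upy-PEG over PBS and −0.05 for antimiR-195 over PBS. Without antimiR-195 replicates 2 and 3 they were 0.03, −0.01 and 0.04.

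**Figure D5:**
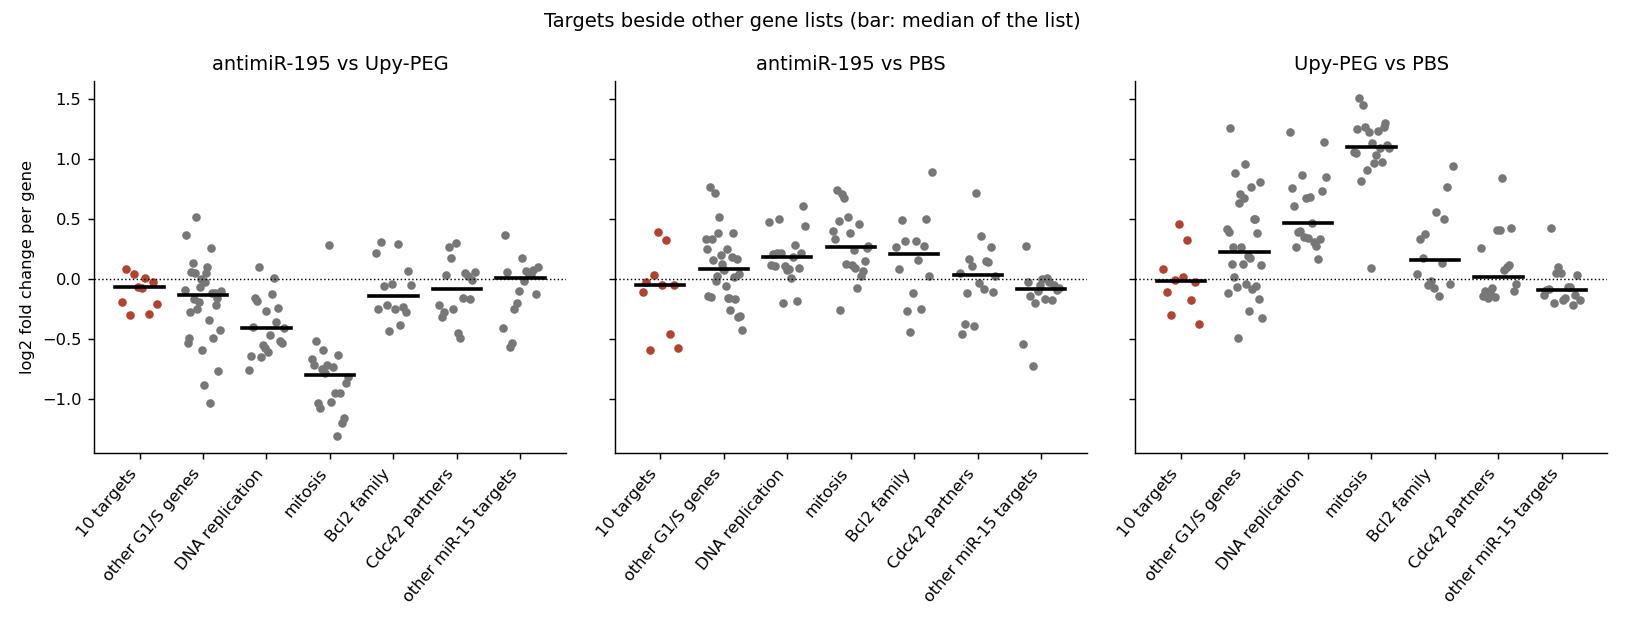
Log2 fold change of each gene in the 10 targets and 6 other lists, by comparison, with the median of each list as a bar. The median of the targets lies near 0 in all 3 panels, while the mitosis genes lie below 0 for antimiR-195 over Upy-PEG, at a median of −0.80, and above 0 for Upy-PEG over PBS, at 1.10.

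Partners of Bcl2 and Cdc42 and other reported targets of the family were set beside them. Of 14 other Bcl2 family genes, 2 were lower at an unadjusted p under 0.05 for antimiR-195 over Upy-PEG: Bcl2l11, which encodes the pro-apoptotic protein Bim, at −0.43, and Bmf at −0.38. Of all genes, 6.4% were lower at that p. Bcl2l11 averaged 14.8 ± 2.13 CPM in antimiR-195 hearts, 19.9 ± 1.22 CPM in Upy-PEG hearts and 20.1 ± 2.59 CPM in PBS hearts. Against PBS, Pmaip1, Bok and Bak1 were higher in Upy-PEG hearts, at 0.95, 0.50 and 0.34, and in antimiR-195 hearts Bax and Pmaip1 were higher, at 0.49 and 0.90, and Bcl2l11 lower, at −0.44. Each of these had an unadjusted p under 0.05 and none an adjusted one. Of all genes, 9.33% were higher at that unadjusted p for Upy-PEG over PBS. For antimiR-195 over PBS, 8.65% were higher and 7.89% lower.

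Of 16 partners and relatives of Cdc42, 3 were lower at an unadjusted p under 0.05 for antimiR-195 over Upy-PEG (Iqgap1 −0.44, Pak1 −0.48, Arhgdia −0.21) and 4 were higher for Upy-PEG over PBS, Pak1 at 0.84, Rhoj at 0.43, Iqgap1 at 0.41 and Arhgdia at 0.26. Pak1, a kinase that Cdc42 activates, averaged 4.66 ± 1.27 CPM in antimiR-195 hearts, 6.51 ± 1.12 CPM in Upy-PEG hearts and 3.63 ± 0.77 CPM in PBS hearts. For antimiR-195 over PBS, Cdc42ep5 and Rhoj were higher, at 0.72 and 0.27, and Cdc42ep4 and Cdc42bpb lower, at −0.39 and −0.37. Cdc42bpb is outside the rule for naming genes and was added because the count was small. At an unadjusted p under 0.05, 6.4% of all genes were lower for antimiR-195 over Upy-PEG and 9.33% higher for Upy-PEG over PBS. For antimiR-195 over PBS, 8.65% were higher and 7.89% lower.

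Of 16 other reported targets of the miR-15 family, 0 were higher and 1 was lower at an unadjusted p under 0.05 for antimiR-195 over Upy-PEG, with a median of 0.02. That gene, the growth factor receptor gene Fgfr1, averaged 42.5 ± 0.90 CPM in antimiR-195 hearts and 50.4 ± 5.20 CPM in Upy-PEG hearts, a log2 fold change of −0.25. Arl2 had 0.37. For Upy-PEG over PBS none had an unadjusted p under 0.05 and the median was −0.09, with Chek1 at 0.43, Vegfa at −0.17 and Hmga1 at 0.10 lowest in p. For antimiR-195 over PBS the median was −0.08, and Fgfr1 and Fgf2 had −0.19 and −0.72. These medians stand beside −0.01, −0.03 and 0.01 for all genes tested. At an unadjusted p under 0.05, 6.67% of all genes were higher and 6.4% lower for antimiR-195 over Upy-PEG. For Upy-PEG over PBS, 13.2% passed in either direction. In the fit without antimiR-195 replicates 2 and 3, 2 of the 16 were higher and 1 lower at that p for antimiR-195 over Upy-PEG. Of all genes, 2.45% were higher and 6.61% lower. In that fit 10 of the 16 had a log2 fold change above 0 and 6 below, with a median of 0.12.

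Over the 12 libraries, each target was set against all tested genes by the Pearson r of log2 CPM, with the 2 highest named. Trim56 and Hspg2 followed Ccnd2 most closely, each at r = 0.99, and Cstb and Tmem167 followed Cdc42, each at 0.97. For Wee1 they were Per2 and Hlf, each at 0.93. The others were Akr1b8 and Ptprn for Ccne1 (0.95 and 0.94), Arfgap1 and Bcorl1 for Cdk6 (0.94 and 0.91), Rfwd3 and Arcn1 for Bcl2 (0.94 and 0.92), Tnfrsf22 and Napb for E2f3 (0.88 each), Itpkc and Rasef for Ccnd1 (0.87 and 0.83), Gm5510 and Atxn3 for Cdc25a (0.86 and 0.85), and Gm15708 and Vps72 for Ccnd3 (0.85 and 0.84). The points share depth and length slope, and a correlation picked as the highest of all genes is high by choice. Among the targets themselves the highest were Cdc42 with Ccne1, at 0.79, and Ccnd2 with Cdk6, at 0.74.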

How the data were processed

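The deposited counts are whole numbers of reads per Ensembl gene, made by the authors from alignments to GRCm38 with STAR and HTSeq, as listed in the submitters' processing notes; which tool did which step, and the strand setting, are not given in the sources used here. The deposited RPKM values, from the same table and named so per the file headers, are reads per kilobase of gene scaled to the reads of the library. The libraries were made with a stranded poly(A) kit, per the labels' protocols. Summary lines that name no gene (no feature, 6.25 to 8.77% of reads that were counted, ambiguous or without a feature) were left out.

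Counts were tested with edgeR 4.0.16 in R 4.3.3 (TMM, filterByExpr, group means over 12 libraries, quasi-likelihood F test, 9 residual degrees of freedom), with Benjamini-Hochberg adjustment over 14770 genes and a threshold of 0.05. CPM are TMM-scaled, and correlations used log2 CPM with a prior count of 2. Shares of RPKM were tested by exact permutation. The alternatives were DESeq2 1.42.0, limma 3.58.1 and the settings listed at the end. The tests were tried on simulated counts. The 10 targets, the lists and the tests were chosen with earlier results of these data known. The genes named are the 10 targets, up to 3 genes of each other list with the lowest p in a comparison, and the 2 genes most correlated with each target. A further gene that meets this rule is not reported here.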

Additional observations from a re-analysis of the deposited data

Results flagged for a closer look

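Cdc25a in Upy-PEG replicate 1 had 9.416 CPM, against 5.72, 6.15 and 6.13 CPM in the other Upy-PEG libraries. Its gap to the next library was 0.883 of the range of the group, above the 95% critical value for 4 libraries. It was the single such value among 45 groups examined, and chance marks about 1 group in 20. The same library had the highest Cdk6 and Bcl2 of the 12 and the highest value on the second principal component. The sum of the 10 targets was also highest in it, at 557 CPM, against 447 to 504 CPM in the other 11 libraries. Whether these values share a source was not tested.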

How the results depend on the processing

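In DESeq2 16 genes passed the adjusted threshold for antimiR-195 over Upy-PEG, 511 for Upy-PEG over PBS and 97 for antimiR-195 over PBS, and 1 target passed in each of the last pair. In limma voom with sample weights 918 genes and 1 target passed for Upy-PEG over PBS, and 1 gene for antimiR-195 over PBS. The count for Upy-PEG over PBS was 332 genes with the gene length slope as a covariate, 349 without antimiR-195 replicates 2 and 3, 172 when the 8 libraries compared were fitted alone and 69 with no filter on low counts, and no filter gave 1 for antimiR-195 over PBS. Why the count of calls differed between these fits was not tested.

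Most targets had fold changes near 0, and several changed sign. For antimiR-195 over Upy-PEG, the covariate gave log2 fold changes of 0.062 for Ccnd2, 0.025 for Cdk6, 0.13 for Cdc25a, 0.042 for E2f3, 0.016 for Bcl2 and −0.050 for Cdc42. Without antimiR-195 replicates 2 and 3 they were 0.058 for Ccnd2, 0.12 for Cdc25a, 0.080 for E2f3, 0.040 for Bcl2 and −0.10 for Cdc42. The voom weights gave 0.20 for Cdc25a, 0.071 for E2f3 and −0.053 for Cdc42. Library size alone gave −0.067 for Ccnd1, −0.11 for Ccnd3 and −0.15 for Cdc42, with a median of −0.23 for the targets and −0.16 for all genes. On log2(RPKM + 0.1) these were −0.068, −0.11 and −0.14 with a median of −0.21, and on log2(RPKM + 1) −0.064, −0.10 and −0.14. No filter gave −0.0093 for Cdc42.

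Between Upy-PEG and PBS, library size alone gave 0.095 for Ccnd3 and 0.081 for E2f3, log2(RPKM + 0.1) 0.094 and 0.070, and log2(RPKM + 1) 0.091 and 0.054. The 8 libraries alone gave 0.0054 for Ccnd3, and voom weights −0.13 for Cdc25a and −0.086 for Bcl2. Between antimiR-195 and PBS, Ccnd3 was −0.013 with library size alone, −0.0095 with voom weights, −0.014 on log2(RPKM + 0.1) and −0.014 on log2(RPKM + 1). The covariate gave 0.017 for Ccnd1, 0.17 for Cdc25a, 0.031 for E2f3 and 0.14 for Bcl2. Leaving out antimiR-195 replicates 2 and 3 gave 0.068 for Ccnd1, −0.052 for Ccne1, 0.15 for Cdc25a, 0.061 for E2f3 and 0.13 for Bcl2, and voom weights 0.0053 for Ccnd1 and 0.064 for Cdc25a. Without those libraries the share of Ccne1 differed by −6.85 percentage points for antimiR-195 minus PBS. Shares for antimiR-195 minus Upy-PEG then differed by −7.43 for Ccne1, −2.02 for Ccnd3 and 0.331 for Cdk6. Why these signs changed was not tested.

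With 1 library left out at a time, 0 to 150 genes passed for Upy-PEG over PBS, 150 without antimiR-195 replicate 2 and 46 without Upy-PEG replicate 3. The lowest and highest log2 fold changes for antimiR-195 over Upy-PEG were −0.33 and 0.095 for Ccne1, −0.25 and 0.12 for Cdc25a, −0.056 and 0.043 for Cdc42, −0.091 and 0.066 for E2f3, and −0.55 and 0.11 for Cdk6. Over PBS, those of Upy-PEG were −0.047 and 0.026 for Ccnd3, −0.16 and 0.11 for Cdc25a, −0.037 and 0.18 for Bcl2, and −0.080 and 0.024 for E2f3. Those of antimiR-195 were −0.22 and 0.082 for Cdc25a, −0.063 and 0.047 for Ccnd1, −0.11 and 0.051 for E2f3, and −0.0039 and 0.069 for Ccnd3. The share of Ccne1 differed by −3.36 to 4.41 percentage points for antimiR-195 minus Upy-PEG, −2.78 to 4.99 for antimiR-195 minus PBS and −1.19 to 3.005 for Upy-PEG minus PBS. The share of Cdk6 differed by −1.28 to 0.196 for antimiR-195 minus Upy-PEG, and that of Ccnd1 by −1.25 to 1.87 for Upy-PEG minus PBS.

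No paired analysis was possible because the replicate numbers follow accession order and pair no libraries. Ccne1 and Cdk6, with at most 162 counts a library, have the widest intervals of the targets for antimiR-195 over Upy-PEG. Changes within these intervals are not excluded by 4 libraries a group. Levels of protein and of mature microRNA were not measured.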
